A study of Homo sapiens with 9 samples.

Results

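Human chromosome 19 carries the densest collection of C2H2 zinc finger genes in the genome, and the genes described here are its protein-coding members with a numbered ZNF symbol. They were chosen by symbol (ZNF, a number and at most 1 further letter), by annotation as protein-coding and by location on chromosome 19, and the rule itself uses no measured value. The rule found 246 of the 60617 genes in the count files. Of these, 234 had enough reads to be tested and 12 did not. Another 17 genes on the chromosome carry such a symbol without being annotated as protein-coding, and they were left out.

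The study used PC-3, an established human prostate cancer line, and measured RNA by sequencing after 5 days of treatment in 9 libraries. The control group (Ctrl, n = 3) received the vehicle only, which was dilute sulfuric acid and ethanol in buffered saline. The second group (Dec, n = 3) received 1 µM decitabine. The third group (Dec_Sam, n = 3), called the combination here, received 1 µM decitabine and 200 µM S-adenosylmethionine (SAM). All cultures were of 1 line, the medium was changed every other day, and cells given SAM alone were not analysed here. The labels do not say that the 3 libraries of a group came from separate cultures, so p-values measure the spread between these libraries only. The question was whether the zinc finger genes of chromosome 19 moved with decitabine, where along the chromosome they did so, and whether adding SAM to decitabine altered it.

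Libraries held between 21934307 and 22489684 counts. The scaling factors by which the trimmed mean of M values (TMM) corrects library size lay between 0.895 and 0.902 in the controls and between 1.03 and 1.08 in the treated libraries, so the scaling itself separated the groups. Using library size alone shifted the median over the 18532 genes tested, on the log2 scale, from 0.035 to 0.281 (decitabine) and from 0.048 to 0.268 (combination), and values under that scaling are given wherever it altered a direction or a split. In counts per 1000000 counts of the scaled library (CPM), the summed level of 5 markers of the line was 1780 to 1900 in the controls, 1160 to 1290 in Dec and 1000 to 1150 in Dec_Sam, but its members moved in different directions. VIM was at 1220 to 1310 CPM in the controls and 524 to 639 CPM in Dec, and KRT18 was also called lower, whereas KRT8 (107 to 127 against 254 to 274 CPM) and CDH1 (1.78 to 2.0 against 13.7 to 14.9 CPM) were called higher and EPCAM was not called. The prostate luminal marker KLK3 had no counts in any library. The sum of 4 fibroblast markers, led by COL1A1 and COL1A2, lay between 3.02 and 4.9 CPM in the controls, between 87.2 and 131 CPM in Dec and between 71.0 and 102 CPM in Dec_Sam. The sum of 3 endothelial markers, nearly all of it PECAM1, was 9.88 to 10.6, 30.9 to 41.7 and 36.6 to 43.8 CPM, and that of 4 immune markers was 0.199 to 0.3, 1.65 to 2.24 and 1.5 to 1.83 CPM, with CD3E without counts in the controls. The fibroblast, endothelial and immune sums were higher in every treated library than in the controls, and their part in the results was not tested.

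A C2H2 zinc finger is a short loop of protein held by a zinc ion between a pair of cysteines and a pair of histidines, and a row of such fingers reads a stretch of DNA. Most of the chromosome 19 genes also encode a KRAB domain, which binds the corepressor TRIM28 (KAP1). TRIM28 in turn brings the histone methyltransferase SETDB1 and the heterochromatin protein HP1 to the bound DNA, and many of these proteins keep retroelements silent. The genes arose by tandem duplication and lie in runs, in which neighbours resemble each other. Several have CpG-rich promoters that are methylated in tumours. Decitabine is a cytosine analogue that is built into DNA and traps the maintenance methyltransferase DNMT1, so that methylation is lost over cell divisions, whereas SAM is the methyl donor of the methyltransferases.

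The promoters of 7 members on which the results turn are printed here as the 250 bases before the annotated start, 5′ to 3′ on the strand of the gene, from RefSeq on GRCh38.p14. Capitals mark each CG dinucleotide, the site that DNMT1 methylates. The first 5 genes had at most 5 counts over the 3 control libraries together and rose with decitabine. ZNF534 lies on the plus strand, with its window at chr19:52428898-52429147, and ZNF582 on the minus strand at chr19:56393535-56393784. ZNF560 (chr19:9498617-9498866), ZNF154 (chr19:57709205-57709454) and ZNF132 (chr19:58440154-58440403) are on the minus strand. The last 2, ZNF254 (chr19:24086937-24087186) and ZNF358 (chr19:7515853-7516102), are on the plus strand and fell with decitabine.
ZNF534: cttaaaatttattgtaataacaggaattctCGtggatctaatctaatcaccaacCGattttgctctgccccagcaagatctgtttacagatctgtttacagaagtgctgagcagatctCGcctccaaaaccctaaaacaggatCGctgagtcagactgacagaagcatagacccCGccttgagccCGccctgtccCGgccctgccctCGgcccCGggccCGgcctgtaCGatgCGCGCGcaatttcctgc
ZNF582: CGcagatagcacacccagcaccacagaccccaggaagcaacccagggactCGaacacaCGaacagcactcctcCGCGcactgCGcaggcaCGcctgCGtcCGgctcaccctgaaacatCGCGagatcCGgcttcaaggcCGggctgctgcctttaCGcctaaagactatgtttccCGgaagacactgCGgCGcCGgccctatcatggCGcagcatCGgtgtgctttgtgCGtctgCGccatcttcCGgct
ZNF560: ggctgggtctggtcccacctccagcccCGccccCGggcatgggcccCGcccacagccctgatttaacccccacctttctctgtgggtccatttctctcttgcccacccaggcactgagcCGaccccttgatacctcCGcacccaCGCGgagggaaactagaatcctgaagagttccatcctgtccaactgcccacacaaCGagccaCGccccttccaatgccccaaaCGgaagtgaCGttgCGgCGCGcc
ZNF154: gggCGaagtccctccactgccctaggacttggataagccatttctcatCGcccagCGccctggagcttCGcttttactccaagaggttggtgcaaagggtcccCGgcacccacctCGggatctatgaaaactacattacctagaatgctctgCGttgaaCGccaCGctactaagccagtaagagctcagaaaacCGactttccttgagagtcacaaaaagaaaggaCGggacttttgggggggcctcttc
ZNF132: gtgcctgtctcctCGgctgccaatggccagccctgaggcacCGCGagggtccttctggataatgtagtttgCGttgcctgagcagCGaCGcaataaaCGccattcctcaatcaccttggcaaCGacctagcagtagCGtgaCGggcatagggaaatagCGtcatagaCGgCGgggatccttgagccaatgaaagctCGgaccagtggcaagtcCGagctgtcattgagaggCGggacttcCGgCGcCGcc
ZNF254: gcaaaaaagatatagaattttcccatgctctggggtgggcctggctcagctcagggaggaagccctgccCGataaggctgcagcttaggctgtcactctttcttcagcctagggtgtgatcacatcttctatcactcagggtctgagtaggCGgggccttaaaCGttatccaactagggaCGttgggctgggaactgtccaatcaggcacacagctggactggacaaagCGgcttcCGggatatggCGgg
ZNF358: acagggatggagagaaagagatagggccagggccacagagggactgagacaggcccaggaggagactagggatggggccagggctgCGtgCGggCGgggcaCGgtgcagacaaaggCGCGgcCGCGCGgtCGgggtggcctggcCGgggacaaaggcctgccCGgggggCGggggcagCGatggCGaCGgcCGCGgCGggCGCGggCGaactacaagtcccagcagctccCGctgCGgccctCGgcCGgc
The windows of the risen genes held 14 (ZNF534), 23 (ZNF582), 14 (ZNF560), 11 (ZNF154) and 19 (ZNF132) CG sites. Those of the fallen genes held 7 (ZNF254) and 26 (ZNF358), so the range of the fallen pair enclosed that of the risen 5. DNA methylation of these windows was not measured in the files used here.

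With decitabine, more members rose than fell. In the test across all genes (edgeR's quasi-likelihood test with Benjamini-Hochberg adjustment, threshold 0.05), 128 of the 234 tested members (54.7%) were higher and 37 (15.8%) lower than in the controls, and 69 were not called. Over all genes tested, 36.3% were called higher and 32.5% lower. The median log2 fold change of the members was 0.38, with quartiles of -0.02 and 0.89, against 0.035 over all genes. With library size as the only scaling the split was 162 higher and 13 lower, with a median of 0.63, and that of all 18532 genes was 8849 higher and 3746 lower. Because these are bulk libraries, fewer cells of a kind and less RNA per cell cannot be told apart in any of these values.

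Against the same controls, the combination raised 124 members (53.0%) and lowered 29 (12.4%), where 35.9% of all genes tested were called higher and 31.3% lower, and the median was 0.36. With library size alone the split was 160 to 16, with a median of 0.58, and that of all 18532 genes was 8695 to 3857. Both comparisons use the same controls, so they are not independent. The summed level of all members was 2970, 2860 and 3000 CPM in the control libraries, 3590, 3490 and 3560 CPM in Dec, and 3430, 3520 and 3630 CPM in Dec_Sam. No treated library reached down to the control range, and the treated groups overlapped.

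Other genes set beside the members were not raised as often. Of the 229 tested ZNF genes on other chromosomes, chosen by the same symbol rule, 50 (21.8%) were higher and 86 (37.6%) lower with decitabine, with a median of -0.09 that became 0.16, with 95 higher and 44 lower, under library size alone. With the combination the numbers were 56 and 87, and 84 and 59 under library size alone. Of the 851 other protein-coding genes tested on chromosome 19, 320 were higher and 311 lower with decitabine, with a median of 0.03, and 412 and 197 under library size alone. The combination gave 361 higher and 260 lower among these. The difference between these lists and the members is given as counts, without a test of its own.

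**Figure D1:**
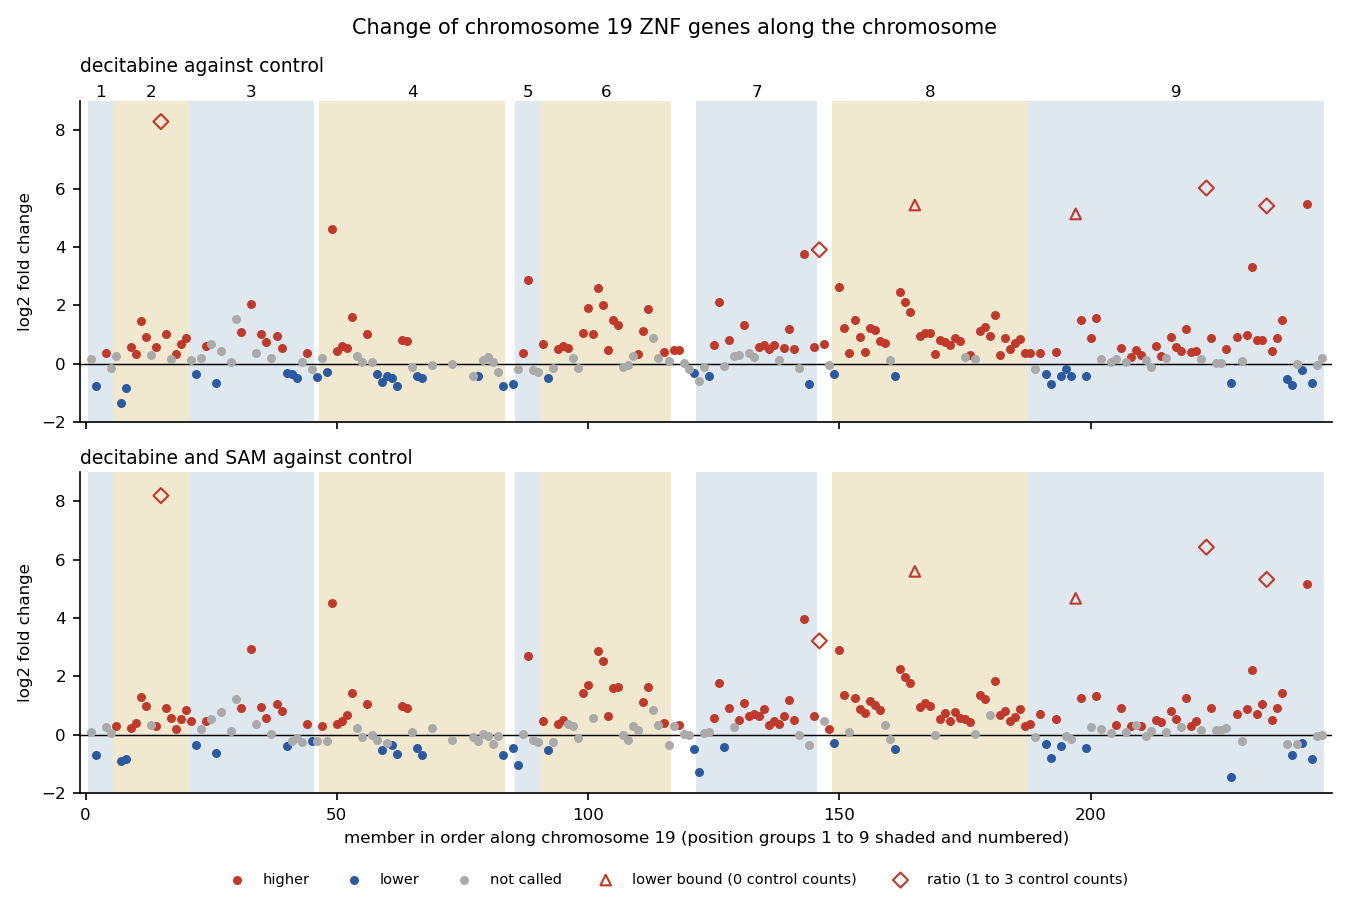
Log2 fold change of each tested member against control (vertical axis) for decitabine (upper panel) and the combination (lower panel), with the members in their order along chromosome 19 (horizontal axis) and runs of neighbours shaded and numbered 1 to 9; filled points are fitted values coloured by call, triangles are lower bounds for members without control counts and diamonds are ratios for members with 1 to 3 control counts. Run 8 lies almost wholly above 0 in both panels, run 4 lies on both sides of 0, and the 6 open symbols mark members that were almost silent in the controls.

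Runs of neighbouring members were formed by starting a new run wherever the next member began more than 1 Mb away, which gave 9 runs of at least 5 members, drawn as groups 1 to 9 in the plots, and 11 scattered members. In run 8, at 51.6 to 53.6 Mb in the q arm, 34 of 39 members (87.2%) rose with decitabine and 2 fell, the highest share risen of the 9 runs, and the median was 0.85 on the log2 scale. With the combination 31 (79.5%) rose and 2 fell, with a median of 0.79, and 30 rose with both treatments. This share was not the highest with the combination, since 12 of the 15 members of run 2 rose. Under library size alone run 8 had 37 higher and none lower with decitabine. Its higher count with decitabine lay between 31 and 35 when 1 library at a time was left out. In run 8, 38 of 39 members encode a KRAB match, and their median window of 300 bases around the start held 25 CG sites. These traits are not particular to it, since all members of runs 1 and 5 match KRAB, with medians of 25 and 26 CG sites. Summed over run 8, the level was 558, 578 and 610 CPM in the controls, 934, 879 and 920 CPM in Dec and 838, 884 and 920 CPM in Dec_Sam. Of the 15 non-ZNF protein-coding genes between its ends only 3 were expressed enough to be tested, and 2 of these fell and none rose with decitabine.

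Run 4, at 19.7 to 24.1 Mb in the p arm next to the centromere, differed from run 8 although 34 of its 37 members also match KRAB. Only 30 of its members were tested, and 7 of the 12 untested members of the chromosome lie in it. With decitabine 8 rose and 10 fell, with a median of 0.01, and with the combination 9 rose and 6 fell, with a median of -0.04. Under library size alone the split became 12 to 3 and 11 to 4, with medians of 0.26 and 0.18, so the numbers called in each direction depend on the scaling. Its summed level was 279, 256 and 275 CPM in the controls, 275, 265 and 231 CPM in Dec and 260, 259 and 262 CPM in Dec_Sam, and these ranges overlap. The median window in this run held 10 CG sites, fewer than in run 8. Leaving out 1 library at a time gave 6 to 9 higher and 6 to 11 lower members with decitabine.

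**Figure D2:**
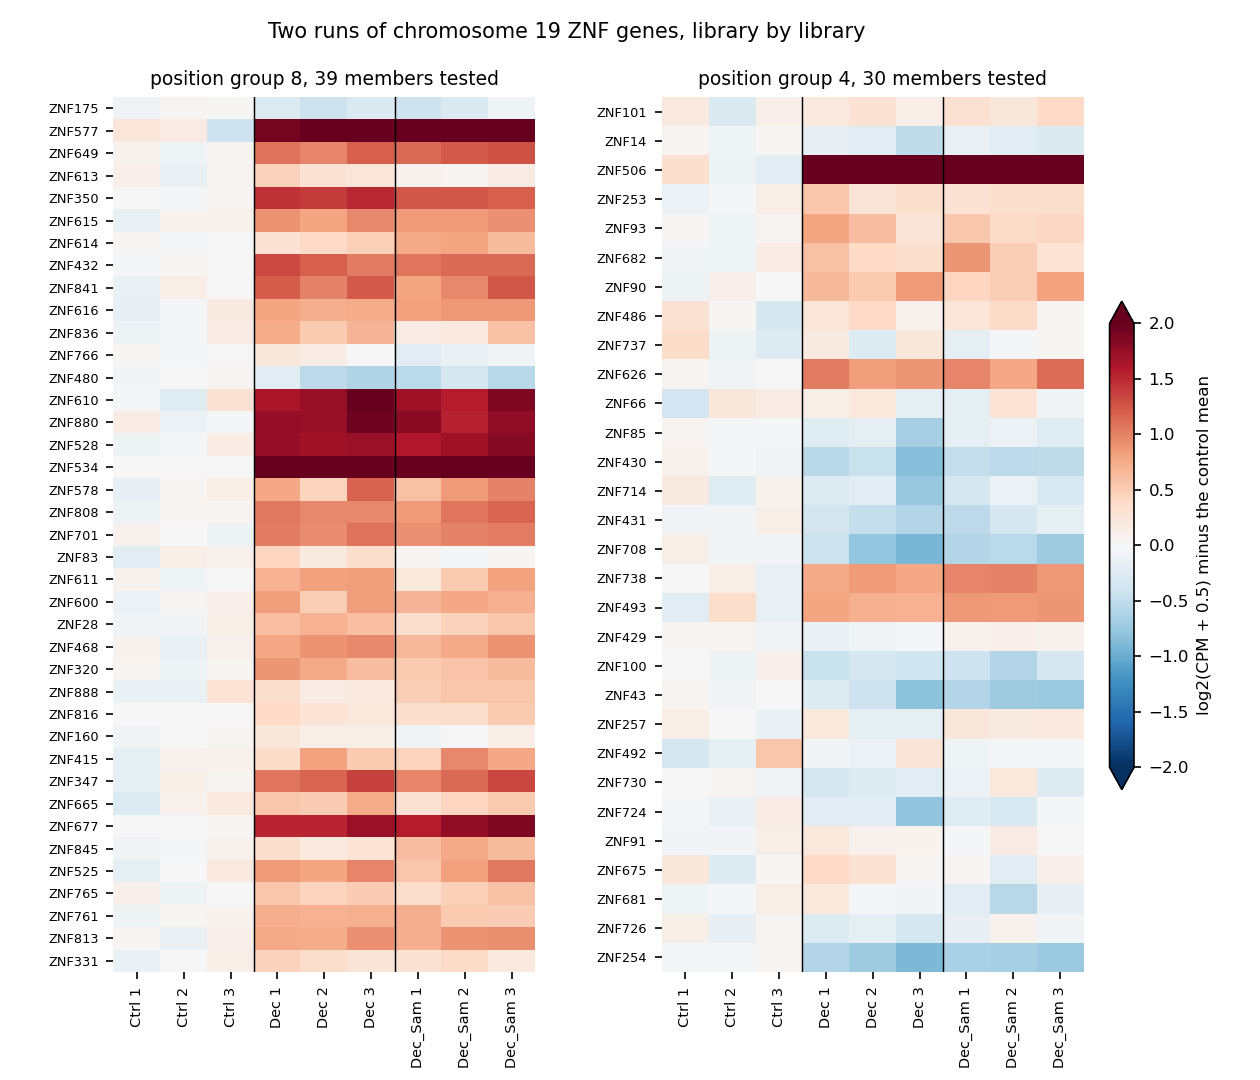
Each row is a tested member of run 8 (left, 39 members) or run 4 (right, 30 members) in chromosome order and each column a library, coloured by log2(CPM + 0.5) minus the mean of the 3 controls, with the colour capped at 2 in either direction and black lines between the groups. In run 8 red fills the 6 treated columns for most rows, with ZNF175 and ZNF480 in blue, whereas run 4 mixes red rows such as ZNF506 and ZNF626 with blue rows such as ZNF254 and ZNF708.

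The members of run 8 differed in size of change. ZNF534, silent in the controls, and ZNF577 rose most and are described with the silent genes. ZNF528, ZNF610 and ZNF880, next to ZNF534 on its proximal side, and ZNF350 were named after their values were seen. ZNF528 went from a control level of 7.81 ± 0.778 CPM (SD, n = 3) to 26.7 ± 0.671 CPM in Dec and 26.6 ± 2.08 CPM in Dec_Sam. ZNF880 went from 1.62 ± 0.197 to 6.98 ± 0.598 and 6.41 ± 0.682 CPM, and ZNF610 from 0.695 ± 0.223 to 3.82 ± 0.885 and 3.36 ± 0.402 CPM. Together with ZNF534 these are 4 consecutive genes within run 8, with log2 fold changes of 2.45 (ZNF610), 2.10 (ZNF880) and 1.77 (ZNF528) in Dec. ZNF350, also called ZBRK1 and known as a partner of BRCA1, rose from 11.9 ± 0.386 to 33.3 ± 1.36 and 28.4 ± 0.431 CPM.

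A few members of run 8 did not follow it. ZNF480 fell from 45.3 ± 1.70 CPM in the controls to 33.4 ± 5.01 CPM in Dec and 32.4 ± 2.60 CPM in Dec_Sam, by 0.44 and 0.48 on the log2 scale, although with library size alone the fall with decitabine was not called (adjusted p = 0.094). ZNF175, the most proximal member, fell from 16.3 ± 0.701 to 12.9 ± 0.821 and 13.6 ± 1.64 CPM. ZNF766, ZNF888 and ZNF160 were not called with decitabine. ZNF766 and ZNF480 lie side by side, just proximal to the group of ZNF610, ZNF880, ZNF528 and ZNF534 that had log2 fold changes above 1.

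In run 4 the risen and fallen members alternated in stretches, and no member between ZNF506 and ZNF626 fell with decitabine. ZNF506 rose from 9, 4 and 3 counts in the controls to 160, 137 and 178 counts in Dec and 141, 133 and 156 in Dec_Sam, with no overlap and a log2 fold change of 4.63 ± 0.27 (SE) in Dec. The other risen members were ZNF253, ZNF93, ZNF682, ZNF90, ZNF626, ZNF738 and ZNF493, and all 8 rose with both treatments. ZNF738 and ZNF493, next to each other went from 11.4 ± 1.14 to 20 ± 0.757 CPM and from 3.63 ± 0.931 to 6.26 ± 0.263 CPM in Dec. Between ZNF626 and ZNF738, ZNF85, ZNF430, ZNF714, ZNF431 and ZNF708 fell with decitabine and ZNF66 was not called. ZNF430 went from 26.7 ± 1.59 CPM to 17.4 ± 2.52 CPM in Dec and 18.7 ± 0.311 CPM in Dec_Sam. ZNF254, the member nearest the centromere, fell from 17.0 ± 0.631 to 10.1 ± 1.16 and 10.4 ± 0.320 CPM, and its fall stayed past the threshold with library size alone (log2 fold change -0.51 in Dec). The members named in this account beyond ZNF506, ZNF93, ZNF708, ZNF43 and ZNF254 were taken up after their values were seen. With ZNF14, ZNF100, ZNF43 and ZNF724, which also fell with decitabine, the run had 10 fallen members. Their log2 fold changes with decitabine spanned -0.76 (ZNF254) to -0.30 (ZNF14).

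Run 6 (36.2 to 37.8 Mb, 26 members) had 16 higher and 1 lower with decitabine and 13 and 1 in Dec_Sam, with medians of 0.53 and 0.43. Its only fallen member was ZNF146, a protein made almost wholly of fingers, which fell from 124 ± 3.78 to 87.5 ± 2.20 and 86 ± 2.12 CPM. Run 7 (43.5 to 45.1 Mb, 24 members) had 13 higher and 2 lower with decitabine and 17 and 2 in Dec_Sam, with medians of 0.51 and 0.53. Only 2 of its members match the KRAB pattern used here, which can miss a variant form of the domain. Run 2 (7.1 to 9.8 Mb, 15 members) had 10 higher and 2 lower, then 12 and 2, and its summed level went from 363 ± 9.51 CPM to 473 ± 10.3 and 473 ± 18.1 CPM. Run 9 near the q telomere (55.5 to 58.5 Mb, 58 of 59 members tested) had 32 higher and 11 lower, then 29 and 8, with medians of 0.34 and 0.30.

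Run 3 (11.5 to 12.6 Mb, 23 of 25 members tested) had 8 higher and 5 lower with decitabine and 9 and 4 in Dec_Sam. Runs 1 (2.8 to 2.9 Mb) and 5 (34.7 to 35.0 Mb) hold 5 members each, with 1 higher and 1 lower in run 1 and 2 higher and none lower in run 5 in Dec. The median of run 5 was -0.20, but 0.04 with library size alone. The 10 tested scattered members had 4 higher and 3 lower, with a median of -0.01 that became 0.24 with library size alone. Non-ZNF protein-coding neighbours inside the other runs, where any were tested, had 7 higher and 12 lower of 34 in run 2, 5 and 1 of 8 in run 3, 2 and 1 of 3 in run 6, 8 and 8 of 21 in run 7 and 13 and 6 of 26 in run 9 in Dec. Across 215 pairs of adjacent members within runs, the Spearman correlation of their log2 fold changes with decitabine was 0.286 and the Pearson correlation 0.0738. The pairs share the same libraries and often sequence, so these are given as descriptions.

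**Figure D3:**
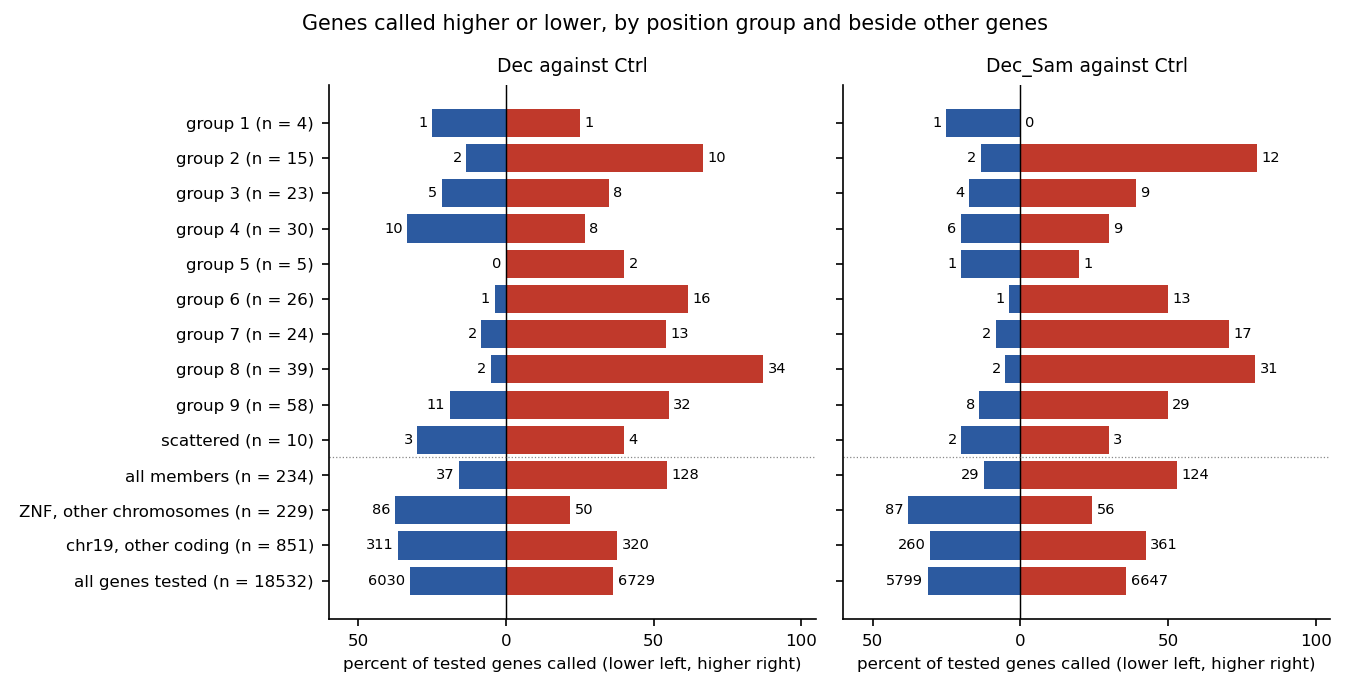
Percent of tested members called higher (to the right) and lower (to the left) than control in each run of chromosome 19 ZNF genes, in the scattered members and in the comparison lists, for decitabine and for the combination, with the counts beside the bars. The bar for run 8 shows 87.2% higher with decitabine, while run 4 has about as many lower as higher members.

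The largest rises were of members with almost no reads in the controls. ZNF534 (ENSG00000198633, chr19:52429148-52452315, plus strand) had no counts in the 3 controls, 58, 47 and 48 counts in Dec and 59, 50 and 58 in Dec_Sam. Set against a floor of 3 counts over the control group, it was at least 43.4-fold higher with decitabine and at least 48.6-fold higher with the combination. ZNF582 (ENSG00000018869, chr19:56375846-56393538, minus strand), whose promoter is known to be methylated in several carcinomas, also had none in the controls, 26, 39 and 59 counts in Dec and 25, 24 and 39 in Dec_Sam, at least 35.1-fold and at least 25.6-fold higher. Both genes thus had counts in every treated library and in no control library. At least 25% of the short sequence words of ZNF582 also occur in other transcripts, so its reads are less certain. The floor and the intervals that follow cover counting error only.

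ZNF560 (ENSG00000198028) had 0, 0 and 1 counts in the controls, 135, 102 and 133 in Dec and 114, 96 and 127 in Dec_Sam. Its ratio to control was 315 (95% interval 56.1 to 12500) and 294 (52.4 to 11600). ZNF154 (ENSG00000179909), a gene whose promoter is methylated in many tumour types, had 1, 0 and 1 counts in the controls, 63, 41 and 49 in Dec and 64, 65 and 69 in Dec_Sam, with ratios of 65.0 (17.7 to 542) and 86.4 (23.6 to 718). No control library came near the treated ones in either gene. Further members with 1 and 3 control counts, ZNF135 and ZNF541, were added after their values were seen. ZNF135 had 20, 17 and 13 counts in Dec and 15, 15 and 16 in Dec_Sam, ratios of 42.5 (7.29 to 1710) and 40.1 (6.85 to 1620). ZNF541 reached ratios of 15 (4.87 to 75.1) and 9.31 (2.91 to 47.5).

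ZNF132 (ENSG00000131849), known for promoter methylation in prostate cancer, had 2, 1 and 2 counts in the controls, 93, 78 and 106 in Dec and 58, 67 and 96 in Dec_Sam. Its log2 fold change was 5.47 ± 0.37 in Dec (adjusted p = 1.8e-08, edgeR's quasi-likelihood test) and 5.18 ± 0.38 in Dec_Sam. ZNF229, in run 7, went from 11, 15 and 11 counts to 159, 208 and 233 and to 189, 244 and 236, by 3.77 ± 0.23 and 3.97 on the log2 scale. ZNF418 went from 6, 1 and 5 counts to 60, 42 and 40 in Dec but only to 21, 17 and 28 in Dec_Sam. ZNF577 went from 23, 21 and 11 counts to 111, 131 and 162 and to 168, 142 and 168. In each of these genes the treated libraries lay above every control. Smaller sets of reads lay behind ZNF599 (log2 fold change 2.86 and 2.71), ZNF829 (2.58 and 2.87), ZNF790 (1.91 and 1.69) and ZNF844 (2.06 and 2.95), and 54.7% of the 31-base words of ZNF844 also occur in other transcripts, so its reads are uncertain.

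**Figure D4:**
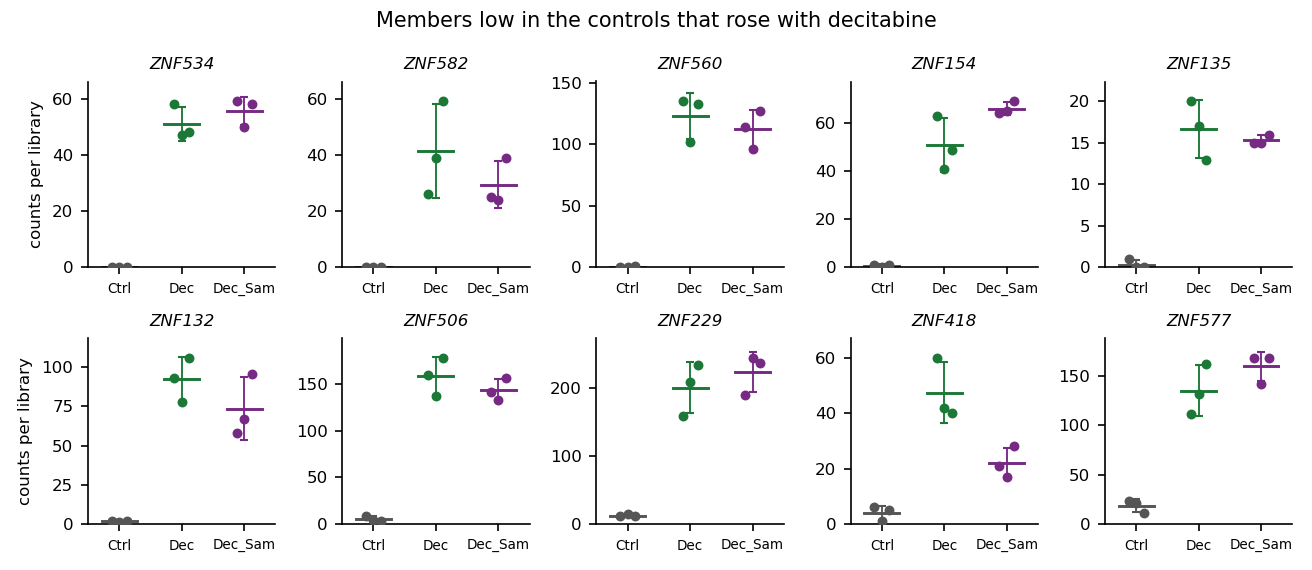
Estimated counts in each of the 9 libraries for 10 members with few reads in the controls, 1 panel per gene, with the groups on the horizontal axis, points for libraries, lines for group means and bars for SDs (n = 3). All control points of ZNF534 and ZNF582 sit at 0, and in every panel the treated points lie above the controls, with ZNF418 lower in the combination than with decitabine.

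The falls were smaller than the rises. ZNF358, a gene of run 2 without a KRAB match, fell furthest with decitabine: it was at 44.2, 37.5 and 38.3 CPM in the controls, 14.7, 15.3 and 17.3 CPM in Dec and 21.0, 21.7 and 21.6 CPM in Dec_Sam. The groups did not overlap, and the log2 fold change was -1.34 ± 0.09 (adjusted p = 2e-08, edgeR's quasi-likelihood test) in Dec and -0.90 in Dec_Sam. It was the only member that fell by more than 1 on the log2 scale with decitabine. Other transcripts share 31.4% of the 31-base words of ZNF358. ZNF414 went from 15 ± 1.43 to 8.52 ± 0.647 and 8.42 ± 0.764 CPM, and ZNF555 from 7.80 ± 0.603 to 4.55 ± 0.555 and 4.87 ± 0.475 CPM. ZNF507 fell from 27.7 ± 1.34 to 16.9 ± 0.606 and 20.1 ± 1.44 CPM, and ZNF784 from 16.9 ± 0.639 to 10.5 ± 0.793 and 9.66 ± 0.275 CPM. In each of these the treated libraries lay below every control.

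Further falls with decitabine were those of ZNF708 (log2 fold change -0.75), ZNF324B (-0.67) and ZNF440 (-0.65), which fell by 0.66, 0.83 and 0.64 in Dec_Sam. ZNF180 fell with decitabine by 0.71 on the log2 scale, and with the combination its log2 fold change of -0.36 had an adjusted p of 0.078 in edgeR's quasi-likelihood test. ZNF43 fell by 0.49 and 0.70, but its fall with decitabine was not called with library size alone (adjusted p = 0.082). The falls of ZNF497 (-0.72 and -0.71) and ZNF667 (-0.44 and -0.47) were likewise not called with library size alone (adjusted p from 0.12 to 0.24). The calls of ZNF497 were also lost in 3 omissions of a library with each treatment and that of ZNF667 in Dec in 2, and 49.2% of the 31-base words of ZNF497 occur in other transcripts.

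Among 10 members known from cancers for methylated promoters (ZNF132, ZNF154, ZNF177, ZNF331, ZNF382, ZNF471, ZNF582, ZNF667, ZNF671 and ZNF677), 8 rose and 1 fell with decitabine (median 0.88 on the log2 scale), and 6 rose and 1 fell with the combination, with a median of 0.64. None was called between the treatments. Of all genes tested, 36.3% were higher and 32.5% lower with decitabine, and 35.9% and 31.3% with the combination. ZNF677 rose from 5.15 ± 0.072 CPM to 16.6 ± 1.38 CPM in Dec and 18.5 ± 1.97 CPM in Dec_Sam, and ZNF671 from 5.61 ± 0.251 to 10.3 ± 1.83 and 10.7 ± 1.37 CPM. ZNF331 went from 40.8 ± 3.87 to 52.4 ± 3.80 and 49.8 ± 3.32 CPM, and its call with the combination was lost without Ctrl replicate 1 or Dec_Sam replicate 2. ZNF471 rose with decitabine from 1.84 ± 0.229 to 3.40 ± 0.358 CPM and was at 2.21 ± 0.529 CPM in Dec_Sam, where it was not called. The difference of ZNF471 between the treatments was -0.62 (adjusted p = 0.055 by edgeR), and it was called with voom and limma (-0.63), with the replicate block (-0.63) and without Dec_Sam replicate 3 (-0.83). ZNF382 was called higher with decitabine (log2 fold change 0.55) but not with the combination (0.36), and its difference between the treatments was not called. Its decitabine call was lost with DESeq2, with no filter and without Ctrl replicate 1, Ctrl replicate 2, Dec replicate 2 or Dec replicate 3 (0.43 to 0.57), and with the combination it was called with library size alone (0.58) and without Ctrl replicate 3 (0.56). ZNF177 (0.31 and 0.35) was not called, although library size alone (0.55 and 0.57) and, with the combination, omission of Dec_Sam replicate 3 (0.51) gave a call, and 88.2% of its 31-base words are shared with other transcripts. ZNF667 was the member that fell.

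Among 9 members known to bind retroelements or other zinc finger genes (ZNF91, ZNF93, ZNF274, ZNF417, ZNF587, ZNF611, ZNF649, ZNF765 and ZNF808), 7 rose and none fell with either treatment, with medians of 0.80 and 0.55. The shares of all genes tested were 36.3% higher and 32.5% lower with decitabine, and 35.9% and 31.3% with the combination. ZNF274, which brings SETDB1 to the ends of zinc finger genes, rose from 25 ± 1.43 CPM to 45.6 ± 0.312 CPM and 47.2 ± 2.09 CPM, a log2 fold change of 0.87 ± 0.08 in Dec (adjusted p = 1.7e-07, edgeR's quasi-likelihood test). ZNF649, a binder of young LINE elements, went from 2.63 ± 0.167 to 6.16 ± 0.498 and 6.75 ± 0.362 CPM, and ZNF808 from 7.29 ± 0.462 to 15 ± 0.601 and 15.4 ± 1.74 CPM. ZNF93, which represses LINE elements of primates, went from 6.66 ± 0.352 to 10.1 ± 1.97 and 9.21 ± 0.555 CPM. ZNF611 (0.80 and 0.55) and ZNF765 (0.51 and 0.48) also rose. ZNF91, a repressor of SVA elements, was at 16.0 ± 1.16, 17.5 ± 1.01 and 16.4 ± 1.30 CPM and was not called, although with library size alone it was called higher (0.37 and 0.25). ZNF417 rose (0.97 and 0.90) and its near copy ZNF587 was not called (0.10 and -0.20, with the first at 0.35 and called under library size alone, and the second called lower with no filter and without Dec_Sam replicate 3), but 49.5% and 50.5% of their 31-base words are shared with other transcripts, so the reads of this pair may be divided between them with error.

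Genes of the machinery through which KRAB zinc finger proteins silence DNA mostly fell. Of 24 such genes 18 were lower and 1 (MORC2, log2 fold change 0.19) higher with decitabine, with a median of -0.44. With the combination 16 were lower and none higher, with a median of -0.38. Of all genes tested, 32.5% were lower and 36.3% higher with decitabine, and 31.3% and 35.9% with the combination. Under library size alone the numbers of these 24 genes were 12 lower and 4 higher, with a median of -0.20, and 11 and 5, with a median of -0.16. TRIM28, the common corepressor of the KRAB proteins, which itself lies on chromosome 19, was at 675, 703 and 716 CPM in the controls, 349, 357 and 338 CPM in Dec and 384, 360 and 326 CPM in Dec_Sam. Its treated libraries did not overlap with the controls, and the log2 fold change was -1.0 ± 0.07 in Dec (adjusted p = 4.1e-08, edgeR's quasi-likelihood test) and -0.97 in Dec_Sam. SETDB1 fell from 53.5 ± 2.97 to 31.5 ± 4.01 and 31.3 ± 1.07 CPM, and its partner ATF7IP from 57.2 ± 3.75 to 43.3 ± 3.13 and 39.8 ± 3.65 CPM.

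DNMT1, the target of decitabine, fell from 404 ± 32.7 CPM to 230 ± 30.4 and 237 ± 15.4 CPM. The histone methyltransferases SUV39H1 (log2 fold change -1.43 and -1.09) and EHMT2 (-1.13 and -1.0), the chromatin remodeller ATRX (-1.13 and -1.08) and the deacetylase HDAC1 (-0.96 and -1.04) fell with both treatments. CBX5, which encodes HP1 alpha, fell with decitabine from 112 ± 5.20 to 75.5 ± 2.77 CPM and was at 115 ± 10.8 CPM in Dec_Sam, where it was not called (log2 fold change 0.04). Its difference between the treatments was 0.61 on the log2 scale (adjusted p = 0.00046, edgeR's quasi-likelihood test). UHRF1, which guides DNMT1 to replicated DNA, was also higher with the combination than with decitabine alone, by 0.55. SUV39H1 was higher too (0.33), whereas PPHLN1, also of the 24 genes, was lower (-0.31). No others of the 24 were called between the treatments. Whether the falls of TRIM28 and SETDB1 are connected with the calls of the zinc finger genes was not tested.

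Features of the genes that the choice did not use were set beside the calls as descriptions. A RefSeq window of 300 bases around the start was matched for 216 members, and 54.2% of these held at least 20 CG sites and 6.48% fewer than 10, against 41.2% and 43.6% of all 35116 RefSeq windows. With decitabine, 66 of 115 tested members with at least 20 CG sites rose and 21 fell, against 41 and 13 of 82 with 10 to 19 sites and 4 and 2 of 12 with up to 9. The Spearman correlation of the number of CG sites with the log2 fold change was 0.00853 over 209 members, which share libraries and sequence. Of the 171 tested members with a KRAB match 102 rose and 22 fell, with a median of 0.45, and of the 63 without one 26 rose and 15 fell, with a median of 0.24. Outside runs 4 and 8 these were 61 and 11 of 106 (median 0.42) and 25 and 14 of 59 (median 0.26). Members without a match may still encode a KRAB domain that departs from the pattern. Many of them lie in run 7, where only 2 of 24 members match, so this split is not one by domain.

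The members encode between 1 and 36 C2H2 fingers, with a median of 12. With decitabine 30 of 62 members with fewer than 10 fingers rose and 11 fell, 53 and 17 of 100 with 10 to 14, and 45 and 9 of 72 with at least 15. The Spearman correlation of the number of fingers with the log2 fold change was 0.0677 over 234 members. On the plus strand 60 of 128 rose and 22 fell (median 0.29), and on the minus strand 68 and 15 of 106 (median 0.53). The median member shared 13.4% of its 31-base words with other transcripts, and 14 members shared more than 50%. By this share there were 52 higher and 14 lower of 86 members under 10%, 52 and 12 of 97 at 10 to 25%, and 24 and 11 of 51 at 25% or more.

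Because tandem copies keep parts of their promoters, each run with at least 20 matched windows was searched for a word of 12 bases on both strands. The word taken was the one held by the largest number of the 250-base upstream windows of the run. The words are shown because each was more common in its run than in other members or in all RefSeq windows. In run 4 it was CTGTCACTCAGG, in 18 of 29 windows (62.1%), 5 of 187 windows of other members and 0.103% of all RefSeq windows. Members of this run with the word had 4 higher and 3 lower of 17 tested with decitabine, and those without it 1 and 7 of 10. In run 8 it was CAGGCCCCGCCC, in 12 of 32 windows (37.5%), 4 of 184 windows of other members and 1.21% of all. Of members with it 11 of 12 rose and none fell, and 18 rose and 1 fell of 20 without it. In run 7 it was GAATTCTGGGAA, in 9 of 20 windows (45%), in no other member and in 0.0883% of all, with 7 higher and none lower of 9 with the word and 4 and 2 of 11 without.

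In run 3 the word was CCAATCAGGGGC, in 11 of 24 windows (45.8%), no other member and 0.074% of all, with 4 higher and 3 lower of 10 with it and 4 and 2 of 12 without. In run 6 it was ATTTCCCAGAGG, in 8 of 25 windows (32.0%), 2 of 191 windows of other members and 0.057% of all, with 4 higher and none lower of 8 and 12 and 1 of 17. In run 9 it was AACTACATTACC, in 11 of 54 windows (20.4%), 1 of 162 windows of other members and 0.0399% of all, with 6 higher and 1 lower of 11 and 21 and 10 of 42. Of the promoters printed above, that of ZNF154 holds this last word. The words were chosen for their frequency within a run, so their frequency is a description, and no match was read as a binding site.

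Adding SAM to decitabine moved few members. Between the combination and decitabine alone, 6 members (2.56%) were higher and 8 (3.42%) lower in edgeR's quasi-likelihood test with Benjamini-Hochberg adjustment, where 7.67% of all genes tested were called higher and 8.02% lower, and the median difference of the members was -0.01. Before adjustment 34 members had a p under the threshold of 0.05. The differences of all tested members lay between -1.07 and 0.88 on the log2 scale. Leaving out 1 library at a time gave between 2 and 8 higher and between 2 and 12 lower members.

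Of the higher members, ZNF428, which encodes 1 finger match and no KRAB match, was at 14, 14.3 and 13.6 CPM in the controls, 8.92, 11.2 and 10.6 CPM in Dec and 15.9, 16.5 and 12.3 CPM in Dec_Sam. Decitabine alone lowered it, although not with library size alone (log2 fold change -0.20, adjusted p = 0.17 by edgeR), and the combination was not called against control, with a difference between the treatments of 0.54 ± 0.13 (adjusted p = 0.013), a call that was lost in 3 of the omissions of a library. ZNF121 was at 41.7, 40 and 46.2 CPM in the controls, 50.2, 45.2 and 47.9 CPM in Dec and 65.1, 63.3 and 61.3 CPM in Dec_Sam, so that the combination libraries lay above all others. With decitabine alone ZNF121 was not called against control (log2 fold change 0.16), although it was under 4 of the alternatives (0.18 to 0.41). ZNF358, the member lowered most by decitabine alone, was 0.44 ± 0.09 higher with the combination (adjusted p = 0.0078) and remained below control. ZNF845 (0.40) and ZNF614 (0.36), both of run 8, rose with decitabine and were higher still with the combination. Both lost the call between the treatments without Dec_Sam replicate 2, and ZNF614 also without Dec replicate 1 or Dec replicate 2. ZNF444 (0.27) was named after its values were seen.

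Of the lower members, ZNF302 was at 19.6, 19.3 and 19.8 CPM in the controls, 20, 17.3 and 13.8 CPM in Dec and 9.97, 8.76 and 9.88 CPM in Dec_Sam. It was not called with decitabine alone (log2 fold change -0.20, adjusted p = 0.15), fell by 1.04 in Dec_Sam and differed by -0.83 ± 0.13 between the treatments (adjusted p = 0.0014). ZNF587B was at 20.9, 17.5 and 21.1 CPM in the controls, 14.7, 10.7 and 12.4 CPM in Dec and 6.57, 6.2 and 8.86 CPM in Dec_Sam. These values fell stepwise, without overlap between the groups. At least 25% of the short sequence words of ZNF587B also occur in other transcripts, so its reads may be assigned with error. ZNF418, which rose with both treatments, was lower by 1.07 ± 0.31 in Dec_Sam (adjusted p = 0.033), and this call was lost without replicate 1 or 2 of the decitabine group and without replicate 1 or 2 of the combination group. ZNF558 (-0.34) and ZNF45 (-0.34) were lower too, and ZNF45 lost its call in 6 omissions of a library, ZNF558 in 2. The call of ZNF45 was also lost with no filter (-0.33) and in the fit of only the 6 libraries compared (-0.35). ZNF83 (-0.32), ZNF766 (-0.26) and ZNF266 (-0.25) were named after their values were seen.

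**Figure D5:**
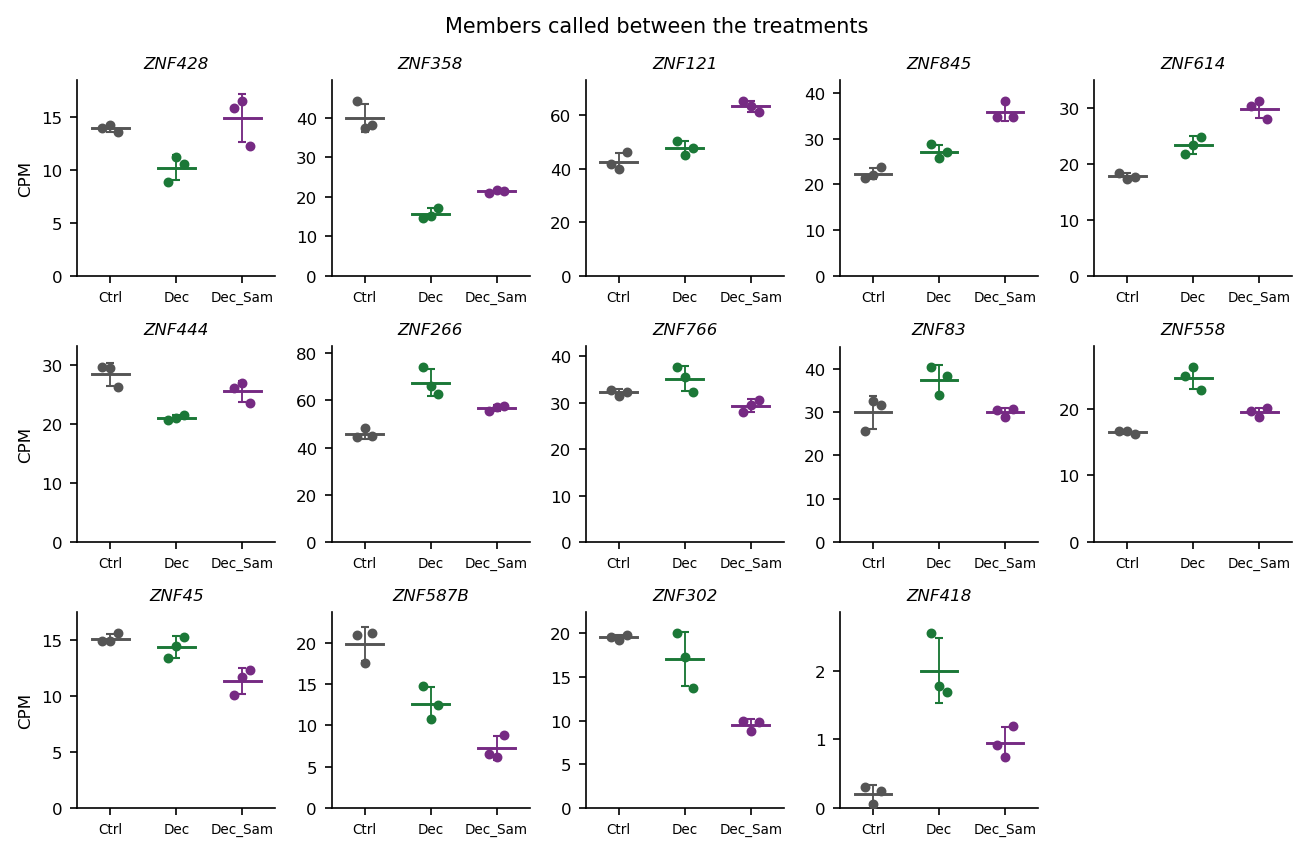
CPM in each of the 9 libraries for the 14 members called between the combination and decitabine alone, 1 panel per gene, with the groups on the horizontal axis, points for libraries, lines for group means and bars for SDs (n = 3). The combination libraries of ZNF121 lie above all others at 61.3 to 65.1 CPM, and those of ZNF302 and ZNF587B lie below all others.

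The members with fewer than 3 control counts named above were not called between the treatments. ZNF534, ZNF582, ZNF560 and ZNF154 had differences of 0.16, -0.46, -0.10 and 0.41 on the log2 scale, with adjusted p of 0.65, 0.37, 0.76 and 0.24 in edgeR's quasi-likelihood test. The 12 untested members were ZNF556, ZNF69, ZNF878, ZNF208, ZNF676, ZNF729, ZNF98, ZNF99, ZNF723, ZNF728, ZNF536 and ZNF835. They had between 0 and 27 counts over the 3 libraries of a group, and ZNF536 had none in any library.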

How the data were processed

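RNA-seq libraries of PC-3 cells (3 control, 3 decitabine, 3 combination) were grouped by their labels, and doses were taken from the methods. Per the labels' processing notes, the authors used Trim Galore 0.6.4, kallisto 0.4.6, edgeR 3.17 and GRCh38.p13. The deposited values used here were kallisto's estimated counts per Ensembl gene, neither normalized nor whole, and were rounded. The log2 CPM values that the authors deposited beside them were not used. The annotation release behind the identifiers is not given in the sources used here, and 60357 of 60617 were matched to GENCODE release 44, which gave symbols, types and positions.

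The members and lists were chosen with earlier results of these data known. All 18532 genes passing filterByExpr were fitted with edgeR 4.0.16 in R 4.3.3 (quasi-likelihood test, robust, TMM, 1 mean per group, all 9 libraries), with Benjamini-Hochberg adjustment over all of them and a threshold of 0.05. The study used voom and limma, which was an alternative here, since the files hold counts. CPM were scaled by TMM. Means are given with SDs over 3 libraries and log2 fold changes with SEs. The common dispersion was 0.009774, and pairs of libraries within a group differed by 6.4 to 26.1 in chi-square per degree of freedom, so none was a copy. Members without control counts were set against a floor of 3 counts over the group, and ratios with 1 to 3 control counts have 95% intervals, for counting error only. The quasi-likelihood test was also run on simulated counts with known fold changes, and the outcome is not reported here. A further marker list is not reported here.

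Runs of members ended where the next gene began over 1 Mb away, and runs under 5 members were pooled as scattered. Fingers and KRAB matches were found in translations of the longest GENCODE coding sequence, not in RefSeq proteins as first planned. A KRAB match required the A box pattern [FL]x[DE]VxxxFxxxEW, so other forms of the domain were counted as no match. RefSeq promoters of GRCh38.p14 were used, and shared 31-base words were counted over GENCODE transcripts. Named members were the 10 largest rises and 10 largest falls of each treatment and the 5 and 5 between treatments (called, a mean of at least 20 counts, no overlap), the largest rise and fall of each run, the members of both function lists, the genes of the silencing machinery, and members without control counts and a treated mean of at least 10. Alternatives were other scalings (library size alone, DESeq2 size factors), other tests (voom with limma 3.58.1, DESeq2 1.42.0), other filters (none, or 10 counts on average), a fit of the 6 compared libraries, a replicate block, a log2 fold change over 1, gaps of 0.5 and 2 Mb, and omission of each library. Those for runs 4 and 8, for other lists and for comparison genes were added after the data were seen. Sequence features, counts and plots were made with scipy 1.17.1, matplotlib 3.10.9, numpy 2.4.6 and pandas 2.3.3 under Python 3.11.15.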

Additional observations from a re-analysis of the deposited data

How the results depend on the processing

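The medians of the chromosome 19 ZNF members against control stayed above 0 under every alternative run, whereas that between the treatments (-0.01) ran from -0.04 to 0.01 over the omissions of a library. Requiring a log2 fold change over 1 left 47 higher and 1 lower with decitabine, 45 and 3 with the combination, and 0 and 1 between the treatments. With library size alone 13 were lower with decitabine (median 0.63) and 16 with the combination (median 0.58). DESeq2 gave a median of 0.42 with decitabine, and only the 6 libraries compared gave 5 lower members between the treatments. Leaving out each library in turn gave 114 to 127 higher, 31 to 38 lower and a median of 0.35 to 0.40 with decitabine, 109 to 126, 25 to 32 and 0.34 to 0.42 with the combination, and 2 to 8 higher and 2 to 12 lower between the treatments. For these alternatives the cause was not tested, beyond the fewer libraries or the shifted scale itself. A replicate block gave 130 higher and 37 lower (median 0.39), 126 and 31 (0.37), and 7 and 9. Correlations of same-numbered libraries ran from -0.0165 to 0.233 and were not all above 0.1, so the numbers were not taken as pairs, although each decitabine library correlated best with the combination library of its own number (0.233, 0.0359 and 0.229). Under the block ZNF180 was called with the combination and ZNF471 between the treatments. Other gaps between runs moved the value of 5 (0.5 Mb) and 12 (2 Mb) results on runs, and library size alone moved 20. Depth limits members with few counts, and the differences between the treatments rest most on single libraries.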
